A study of Mus musculus with 2 samples.

Results

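To describe how the replication machinery was transcribed at the end of retinal neurogenesis, the 40 genes listed as DNA replication and S phase genes were followed in single cells of mouse retina at postnatal day 7. The members were taken by symbol, and all 40 were found among the 30905 genes that both libraries list. The control library pooled 2 retinas from control pups, and the Mettl3-CKO library pooled 2 retinas from Six3-Cre+; Mettl3 floxed/floxed pups of the same litter. Mettl3 encodes the catalytic subunit of the enzyme complex that writes m6A on RNA. Six3-Cre acts in retinal progenitor cells (RPCs), so that cells of other origin keep the gene, as the retinal periphery may. The sources used here do not give the alleles of the control pups. Each genotype is represented by 1 library, no test between genotypes was possible, and every interval below is a 95% interval that covers counting error only.

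Before a cell divides, MCM helicases are loaded on origins by Cdc6 and Cdt1, polymerases and the Pcna clamp copy the DNA, enzymes such as ribonucleotide reductase and thymidylate synthase supply nucleotides, and histone chaperones rebuild chromatin behind the fork. Most of these genes are transcribed from late G1 into S phase under E2F factors. In the mouse retina at this age the last RPCs are leaving the cell cycle, and Müller glia are the last retinal cell type to form.

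The matrices as read ended early, so that only part of each library was used. Of 5995 control cells, 3994 were complete. They had 20955138 unique molecular identifiers (UMIs, counts of captured RNA molecules) outside mitochondrial genes, with a median of 4520.5 per cell. Of 6992 Mettl3-CKO cells, 3109 were complete, with 19957693 UMIs and a median of 5207. Levels are given as CPM: UMIs summed over the cells of a population, per 1000000 UMIs of that population. Where 2 values stand together, the first is control and the second Mettl3-CKO. Mettl3 was at 39.5 CPM in control and 33.1 CPM in Mettl3-CKO, a ratio of 0.837 (0.754 to 0.928). These reads lie near the transcript end, and whether they fall in the deleted part was not examined, so that this level is no check of the genotype. Xist, the RNA of the inactive X chromosome, was at 1.53 CPM in control and at 1544 CPM in Mettl3-CKO, where 1531 cells carried Xist without Y-linked RNA and 725 carried Y-linked RNA without Xist. In control, 8 cells carried Xist without Y-linked RNA and 2512 carried Y-linked RNA without Xist. Over whole libraries, genotype and the sex of the pups thus cannot be fully told apart. Key values are repeated for each of the 2 Mettl3-CKO subsets. The subset with Y-linked RNA carries the same kind of sex-linked RNA as the control library. With 2 pups pooled, the 2 subsets would come from different pups, so that sex and pup cannot be told apart between them. The libraries shared 5 cell barcodes.

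Promoter windows, from 250 bases before to 50 bases after the start of the gene, were available for 34 of the 40 genes in the RefSeq set for GRCm38.p6. They were searched on both strands for the E2F-type core of 8 bases in its 4 forms, TTTCCCGC, TTTCGCGC, TTTGCCGC and TTTGGCGC. The core was present in 14 of the 34 genes (41.2%) and in 704 of all 27025 genes with a window (2.6%). The letters CCAAT were present in 22 of the 34 genes (64.7%) and in 41.1% of all genes, and the letters TTTGAA in 3 (8.82%) and in 20.2%. No other motif was searched, and a match describes the letters and is not evidence of binding. The 4 windows below are shown because they hold a match and belong to genes on which the results turn, with the matches to the E2F-type core in capitals. Where matches on opposite strands overlap, as in Mcm5 and the first match of Mcm6, the capitals cover both.
Mcm5, an MCM helicase subunit, chr8:75109259-75109558, plus strand: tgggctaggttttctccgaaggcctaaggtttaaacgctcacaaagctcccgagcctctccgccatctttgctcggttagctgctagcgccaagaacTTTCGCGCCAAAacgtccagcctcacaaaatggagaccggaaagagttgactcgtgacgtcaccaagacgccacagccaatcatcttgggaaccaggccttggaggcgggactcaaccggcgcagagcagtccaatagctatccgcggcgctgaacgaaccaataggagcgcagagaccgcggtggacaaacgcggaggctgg
Mcm6, another subunit of that helicase, chr1:128359656-128359955, minus strand: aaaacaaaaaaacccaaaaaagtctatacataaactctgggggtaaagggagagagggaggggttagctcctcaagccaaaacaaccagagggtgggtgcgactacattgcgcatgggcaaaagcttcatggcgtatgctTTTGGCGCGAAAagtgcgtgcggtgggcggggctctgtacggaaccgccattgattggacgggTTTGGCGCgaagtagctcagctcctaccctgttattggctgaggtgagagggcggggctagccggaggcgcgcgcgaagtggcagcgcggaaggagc
Pclaf, a Pcna-associated factor, chr9:65890073-65890372, plus strand: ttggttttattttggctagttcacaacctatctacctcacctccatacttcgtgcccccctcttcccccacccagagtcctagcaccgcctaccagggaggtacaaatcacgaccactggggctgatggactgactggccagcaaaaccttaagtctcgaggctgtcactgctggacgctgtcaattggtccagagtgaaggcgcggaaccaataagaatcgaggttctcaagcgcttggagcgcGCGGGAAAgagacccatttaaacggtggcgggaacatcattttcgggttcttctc
Brca2, a homologous recombination factor, chr5:150522371-150522670, plus strand: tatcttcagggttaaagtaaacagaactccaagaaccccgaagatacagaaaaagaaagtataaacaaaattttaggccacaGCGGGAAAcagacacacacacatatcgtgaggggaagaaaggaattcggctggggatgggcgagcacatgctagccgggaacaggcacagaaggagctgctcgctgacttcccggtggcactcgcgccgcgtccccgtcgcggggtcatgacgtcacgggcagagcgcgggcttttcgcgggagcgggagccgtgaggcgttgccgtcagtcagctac
The windows of Pcna, Tk1, Rrm2, Fen1, Prim1 and Ung, genes on which the results also turn, held none of the 4 forms. This says only that these letters are not in those windows.

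Across all cells, every one of the 40 genes had a higher level in the Mettl3-CKO library, as did 54.0% of all genes tested. Their summed level was 1106 CPM in control (1092 to 1120) and 1450 CPM in Mettl3-CKO (1434 to 1467), a ratio of 1.31 (1.29 to 1.33). The interval of the ratio lay above 1 for 35 of the 40 genes and below 1 for 0, while among all 13146 genes with at least 50 UMIs it lay above 1 for 23.1% and below 1 for 17.4%. At least a 1.5-fold higher level was seen for 16 of the 40 genes, against 5.26% of all genes, and a level at least 1.5-fold lower for 0, against 3.29% of all genes. The median log2 ratio of the 40 genes was 0.48, and that of all genes tested was 0.02. The summed ratio was 1.33 (1.3 to 1.35) when the Mettl3-CKO cells with Xist were taken alone and 1.38 (1.35 to 1.42) when those with Y-linked RNA were. Here and below, these subsets leave out the 853 Mettl3-CKO cells with neither or both kinds of sex-linked RNA. The control side keeps every cell, so that the subsets are not a matched comparison. In pooled cells, a higher level per cell and a larger share of cells that express the gene cannot be told apart.

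**Figure D1:**
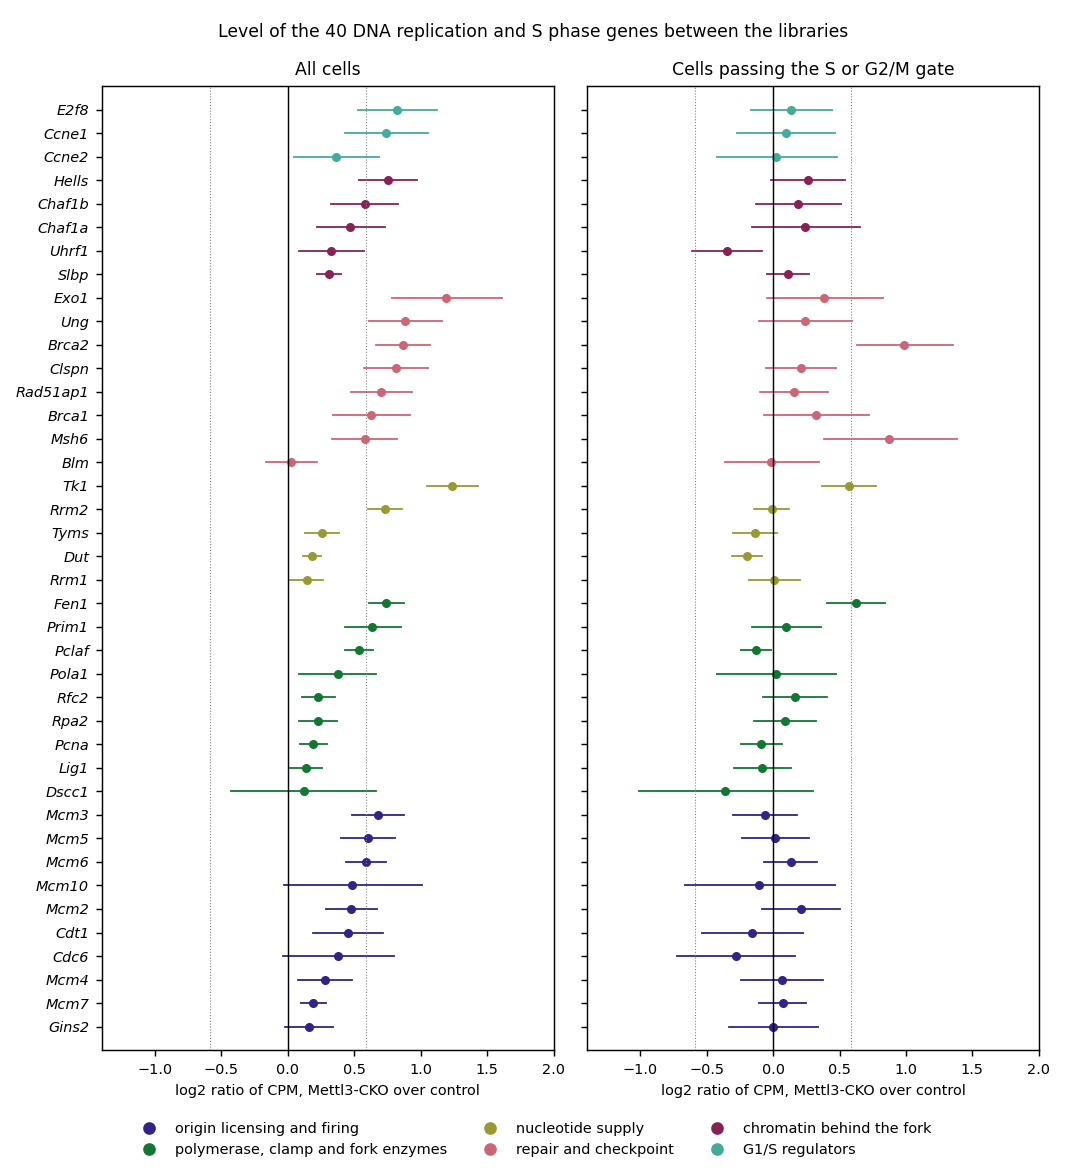
Log2 ratio of CPM, Mettl3-CKO over control, for each of the 40 genes (points) with its 95% counting interval (lines), in all cells (left) and in cells that pass the S or the G2/M gate (right). Colours mark the role of the gene and dotted lines a 1.5-fold difference. All 40 points lie to the right of 0 on the left, as did 54.0% of all genes tested. On the right, points lie on both sides of 0, and Brca2, Msh6 and Fen1 lie past the dotted line.

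The MCM2-7 subunits form the replicative helicase, and all had intervals above 1 over all cells. Mcm3 was at 16.8 CPM in control and 26.8 CPM in Mettl3-CKO (ratio 1.6, 1.4 to 1.84). Mcm5 was at 16.1 and 24.5 CPM (1.52, 1.32 to 1.75), and Mcm6 at 28.8 and 43.2 CPM (1.5, 1.35 to 1.67). The ratios of the other subunits were smaller. Mcm2 was at 18.3 and 25.5 CPM (1.39, 1.22 to 1.59), Mcm4 at 17.8 and 21.6 CPM (1.22, 1.06 to 1.4) and Mcm7 at 89.1 and 102 CPM (1.14, 1.07 to 1.22). Mcm7 overlaps microRNA genes on its own strand. The licensing factor Cdt1 was at 10.3 and 14.0 CPM (1.37, 1.14 to 1.64). Gins2, of the complex that activates the helicase, was at 23.5 and 26.3 CPM (1.12, 0.987 to 1.27), and the intervals of Cdc6 (0.973 to 1.74) and Mcm10 (0.98 to 2.01) also included 1.

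Among polymerase, clamp and fork genes, the flap endonuclease Fen1, which trims Okazaki fragments, was at 36.2 CPM in control and 60.5 CPM in Mettl3-CKO (ratio 1.67, 1.52 to 1.83). The primase subunit Prim1 was at 14.9 and 23.1 CPM (1.55, 1.34 to 1.8), and Pclaf at 61.6 and 89.3 CPM (1.45, 1.35 to 1.56). Pcna, the sliding clamp, was at 71.4 and 81.5 CPM (1.14, 1.06 to 1.23). The annotation lists processed pseudogenes of Pcna and of Tyms, so that some of their reads may not map uniquely. The polymerase subunit Pola1 had a ratio of 1.3 (1.06 to 1.58). The DNA ligase Lig1 was at 50.8 and 55.8 CPM (1.1, 1.01 to 1.2), the clamp loader subunit Rfc2 at 49.2 and 57.7 CPM (1.17, 1.08 to 1.28) and the single-strand binding subunit Rpa2 at 36.7 and 43.0 CPM (1.17, 1.06 to 1.29). The interval of Dscc1, with 58 and 60 UMIs, ran from 0.744 to 1.59.

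In nucleotide supply, thymidine kinase Tk1, which salvages thymidine, was at 15.5 CPM in control and 36.5 CPM in Mettl3-CKO, the highest ratio of the 40 genes (2.36, 2.07 to 2.7). Rrm2, the S phase subunit of ribonucleotide reductase, was at 39.5 and 65.7 CPM (1.66, 1.52 to 1.82), whereas its partner Rrm1, at 48.8 and 53.8 CPM, had a ratio of 1.1 (1.01 to 1.2). The thymidylate synthase Tyms was at 45.9 and 54.8 CPM (1.2, 1.1 to 1.3) and Dut, which removes dUTP, at 154 and 175 CPM (1.14, 1.08 to 1.19).

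Of the 8 repair and checkpoint genes, 6 were at least 1.5-fold higher over all cells, against 5.26% of all genes. Exo1, an exonuclease of mismatch repair, had 73 and 159 UMIs (ratio 2.29, 1.72 to 3.06). Ung, which removes uracil from DNA, was at 8.21 and 15.1 CPM (1.84, 1.52 to 2.24), Brca2 at 15.4 and 28.0 CPM (1.82, 1.58 to 2.09), and the checkpoint adaptor Clspn at 10.9 and 19.1 CPM (1.76, 1.49 to 2.08). The recombination factors Rad51ap1 and Brca1 had ratios of 1.63 and 1.55, and Msh6, which recognises mismatches, one of 1.49 (1.26 to 1.77). Blm, a helicase, was the only gene of the 8 whose interval included 1, at 22.0 and 22.4 CPM (1.02, 0.892 to 1.16). Among chromatin genes Hells, a remodeller, was at 13.2 and 22.2 CPM (1.69, 1.45 to 1.97). The histone chaperone subunit Chaf1b was at 10.6 and 15.9 CPM (1.49, 1.254 to 1.78), its partner Chaf1a had a ratio of 1.39, and Uhrf1, which guides maintenance methylation, was at 12.5 and 15.6 CPM (1.26, 1.06 to 1.49). Slbp, which binds histone mRNA, was at 83.0 and 103 CPM (1.24, 1.16 to 1.32). The G1/S regulators E2f8 (1.77), Ccne1 (1.67) and Ccne2 (1.29) all had intervals above 1.

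A list of 32 other replication genes, none of them a member, had a smaller median ratio. Of the 30 with at least 50 UMIs, 27 had a higher level in Mettl3-CKO, 12 had an interval above 1 and 1 below, and 3 were past 1.5-fold, against the 5.26% of all genes. Those 3, named after their values were seen, were Timeless (ratio 1.74, 1.44 to 2.1), Pole2 (1.71, 1.27 to 2.32) and Ticrr (1.65, 1.28 to 2.14). The gene with its interval below 1 was Orc3 (0.831, 0.741 to 0.932). The median log2 ratio of the tested genes of this list was 0.16.

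To separate levels within cycling cells from the number of such cells, cells were gated by genes that are not members. Each cell of at least 2000 UMIs was thinned to 2000 UMIs, and it passed the S gate with at least 5 UMIs of 26 S phase genes and the G2/M gate with at least 4 UMIs of 44 G2/M genes. At these limits 0.523% and 0.61% of 1147 control rod-like cells passed. Cells that passed only the S gate are called S cells, and G2/M cells are all those that passed the G2/M gate, so that cells of both gates count as G2/M cells. In all, 901 control and 524 Mettl3-CKO cells were too shallow to be gated. In these cells the summed level was 1212 and 1968 CPM (ratio 1.62, 1.49 to 1.77). There 9 of 15 genes tested were at least 1.5-fold higher, against 9.65% of all 5429 genes, and 0 as much lower, against 7.18%. Among these shallow cells the ratio was 0.913 (0.785 to 1.06) in RPC-like cells, 1.41 (1.12 to 1.78) in Müller-like cells and 1.41 in the other classes (1.2503 to 1.59), classes that are defined below by clustering. Whether these cells were cycling could not be read from the gates.

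Gated cells took a larger share of the Mettl3-CKO library. In control, 54 of 3093 cells were S cells, a share of 1.75% (1.31 to 2.27). In Mettl3-CKO the number was 80 of 2585, or 3.09% (2.46 to 3.84), which gave a ratio of 1.77 (1.26 to 2.49). G2/M cells numbered 152 (4.91%) and 234 (9.05%), a ratio of 1.84 (1.51 to 2.24). Against control, the G2/M ratio was 1.62 (1.28 to 2.06) for Mettl3-CKO cells with Xist and 2.12 (1.61 to 2.78) for those with Y-linked RNA, and the S ratio was 1.79 (1.2 to 2.65) and 1.81 (1.1 to 2.98). The S ratio depended on the gate and on 1 cell class. With limits 1 UMI lower it was 1.22 (0.969 to 1.54), and without Müller-like cells, a removal chosen after seeing the data, it was 1.02 (0.612 to 1.69).

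**Figure D2:**
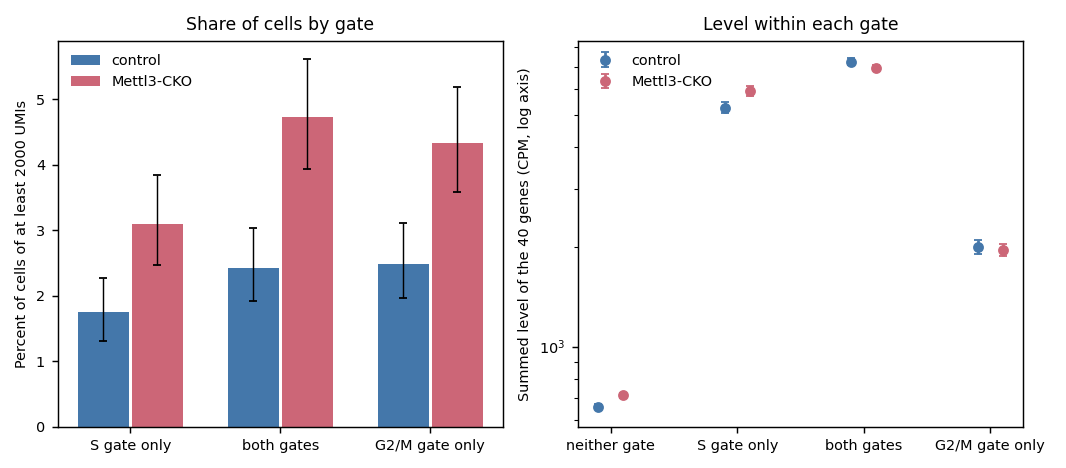
Left, percent of cells of at least 2000 UMIs that pass the S gate only, both gates or the G2/M gate only, in control (blue) and Mettl3-CKO (red), with exact binomial 95% intervals. Right, summed level of the 40 genes in CPM on a log axis for cells in each gate, with Poisson 95% intervals. Shares are higher in Mettl3-CKO in all 3 gates with intervals that do not overlap, while the level differs by a ratio between 0.961 and 1.12 within each gate.

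The members followed the gates, and no member was used to set them. The S gate counts other S phase genes, so that a high level of the members in S cells is not an independent result. In control, their summed level was 659 CPM in cells of neither gate, 5261 CPM in S cells, 7232 CPM in cells of both gates and 2003 CPM in cells of the G2/M gate only. S cells of the control library thus stood 7.98-fold (7.63 to 8.34) above cells of neither gate, and those of Mettl3-CKO 8.29-fold. The control fold depended on the gate. It was 9.81 with another thinning seed, and 4.52 and 11.7 with limits 1 UMI lower and higher. No difference between the libraries is therefore read from these folds. After thinning, a control cell of neither gate had a median of 1 member UMI, an S cell 8 and a cell of both gates 15. In Mettl3-CKO the medians were 1, 11 and 13. Gated cells, 6.66% of control and 12.1% of Mettl3-CKO cells of sufficient depth, held 44.1% and 56.8% of the member UMIs of their library.

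Genes differed in the gate where they were highest. In control, Cdc6 was at 79.3 CPM in S cells, 48.9 CPM in cells of both gates and 1.24 CPM in cells of the G2/M gate only. Mcm6 took the same order with 315, 169.9 and 58.2 CPM, and Ung was at 159 and 43.1 CPM with 0 UMIs in the last group. Rrm2 instead was at 94.8, 709 and 147 CPM, Pclaf at 179, 954 and 264 CPM, Tyms at 189.5, 379 and 131 CPM, and E2f8 at 17.6, 102 and 58.2 CPM, each highest in cells of both gates. Pcna did not separate S cells from cells of both gates, at 399, 400.4 and 61.9 CPM. In Mettl3-CKO, Mcm6 was again highest in S cells (357 CPM, against 191 CPM in both gates), and Rrm2 (609 CPM) and Pclaf (765 CPM) in cells of both gates. Cdc6 did not clearly separate these 2 groups in that library. Over cells of neither gate it was 134-fold (55.1 to 391) in S cells and 121-fold (52.9 to 342) in both gates. In control, Cdc6 was seen after thinning in 9.26% of S cells and 9.33% of cells of both gates. Detection shows how specific a gene was. After thinning, Pclaf was seen in 84.0% of control cells of both gates and in 1.68% of control rod-like cells of neither gate. Dut was seen in 51.9% of control S cells and in 29.9% of those rod-like cells. Median depths before thinning were 10802 UMIs in control cells of both gates and 4060 in all control rod-like cells.

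**Figure D3:**
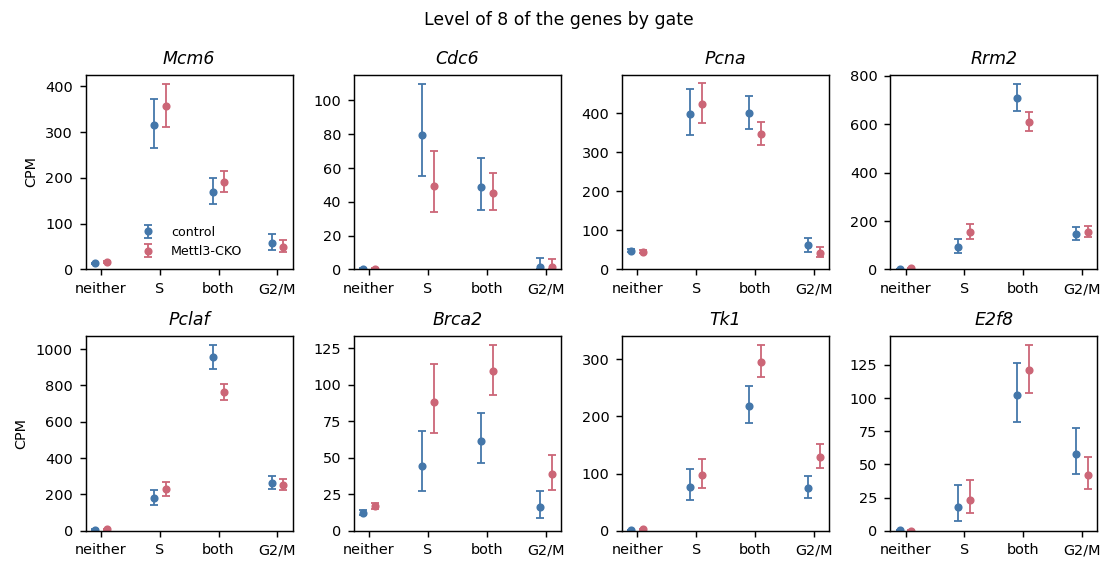
Level in CPM of 8 of the genes, chosen after their values were seen to show the patterns named in the text, in cells of neither gate, of the S gate only, of both gates and of the G2/M gate only (marked G2/M). Blue points are control, red points Mettl3-CKO, and bars are Poisson 95% intervals. Mcm6 is highest in S cells, Rrm2, Pclaf, Tk1 and E2f8 in cells of both gates, and the Brca2 points of Mettl3-CKO lie above control in every gate.

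Across the 4 gates in both libraries, 8 points in all, the most alike of the 39 members with at least 100 UMIs in gated cells were Pclaf and Rad51ap1 (Pearson r of log2(CPM + 1) 0.998), Rrm2 and Pclaf (0.997), and Rrm2 and Rad51ap1 (0.994). Points of 1 library share their depth and preparation, so that these values describe the pattern only.

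Within G2/M cells the summed level was 4699 CPM in control and 4763 CPM in Mettl3-CKO (ratio 1.01, 0.985 to 1.04). At least 1.5-fold higher levels were seen for 4 of 40 genes, against 9.87% of all 8733 genes tested, and lower ones for 0, against 2.44%. The share of higher genes was near that background. The median log2 ratio was 0.09, against 0.07 for all genes. Over every gated cell, a grouping added after seeing the data, the summed ratio was 1.03 (1.01 to 1.06), and it was 1.08 (1.05 to 1.11) for Mettl3-CKO cells with Xist and 0.978 (0.945 to 1.01) for those with Y-linked RNA.

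In S cells no direction of the summed level could be given. The value was 5261 CPM in control and 5909 CPM in Mettl3-CKO, a ratio of 1.12 (1.07 to 1.18). A second random draw of the same thinning gave 0.905 (0.859 to 0.953), thinning to 3000 UMIs gave 0.794 (0.752 to 0.838), limits 1 UMI higher gave 0.944 (0.896 to 0.995), and limits 1 UMI lower gave 1.39 (1.33 to 1.46). A gate built on the other 39 members gave 0.88 (0.84 to 0.923), and Mettl3-CKO cells with Y-linked RNA gave 0.981 (0.905 to 1.06). These values spread more widely than the counting intervals. Of the 31 genes with at least 50 UMIs in S cells, 3 were at least 1.5-fold higher, against 8.27% of all 4242 genes tested, and 1 was as much lower, against 7.87%. Those higher were Msh6, Brca2 and Rrm2, the lower was Cdc6, and the other 9 members had too few UMIs.

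**Figure D4:**
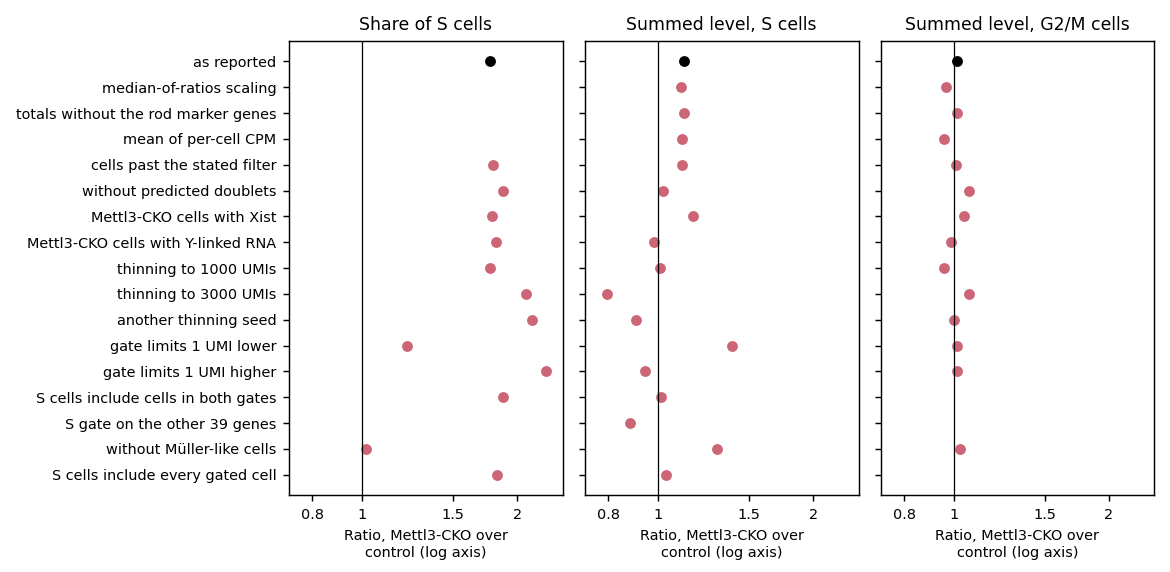
Ratio of Mettl3-CKO over control on a log axis for the share of S cells (left), the summed level of the 40 genes in S cells (middle) and in G2/M cells (right). The black point is the value as reported and red points are alternatives. Shares of S cells stay above 1, levels in S cells spread from 0.794 to 1.39, and levels in G2/M cells stay between 0.958 and 1.07.

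The members past 1.5-fold in G2/M cells are described here as values, since their number, 4 of 40, was near the 9.87% of all genes. The 8 repair and checkpoint genes summed to 407 CPM in control and 525 CPM in Mettl3-CKO G2/M cells (ratio 1.29, 1.17 to 1.41), and 8 of 8 were higher, as were 58.8% of all genes tested. Over every gated cell the ratio of the same sum was 1.26 (1.17 to 1.37). In S cells it was 1.2 (1.01 to 1.43), and in cells of the G2/M gate only it was 1.19 (0.974 to 1.45), an interval that included 1. No direction is read from the S cell values of this paragraph, since the summed level in S cells changed direction between alternatives. In G2/M cells, origin licensing genes had a ratio of 1.0 (0.931 to 1.08) and nucleotide supply genes one of 0.952 (0.905 to 1.0). Brca2 was at 39.6 CPM in control and 78.5 CPM in Mettl3-CKO G2/M cells (1.98, 1.5 to 2.66), at 44.1 and 88.4 CPM in S cells, and at 12.3 and 17.2 CPM in cells of neither gate. In gated cells its ratio was 2.37 (1.81 to 3.12) for Mettl3-CKO cells with Xist and 1.5 (1.07 to 2.1) for those with Y-linked RNA. Genes on both strands overlap Brca2 in the annotation.

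Fen1 was at 119 CPM in control and 188 CPM in Mettl3-CKO G2/M cells (ratio 1.58, 1.34 to 1.87), and Tk1 at 149 and 223 CPM (1.5, 1.29 to 1.74). In gated cells Fen1 had ratios of 1.63 and 1.39, and Tk1 of 1.47 and 1.57, for Mettl3-CKO cells with Xist and with Y-linked RNA. Msh6 had 34 and 92 UMIs in G2/M cells (1.7, 1.14 to 2.6), and Exo1 had 47 and 117 (1.57, 1.11 to 2.25). Brca2, Msh6, Fen1 and Exo1 are the 4 members past 1.5-fold in G2/M cells, and Tk1 lay just under that limit. On the other side, Dut was at 490.2 and 398 CPM (0.812, 0.741 to 0.891), Pclaf at 619.8 and 541 CPM (0.873, 0.805 to 0.946) and Uhrf1 at 103 and 80.8 CPM (0.783, 0.637 to 0.962). In gated cells Pcna had a ratio of 1.02 (0.902 to 1.16) for Mettl3-CKO cells with Xist and 0.762 (0.648 to 0.893) for those with Y-linked RNA, and the difference between these subsets was not tested.

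Cells of neither gate had a summed level of 659 CPM in control and 713 CPM in Mettl3-CKO (ratio 1.08, 1.05 to 1.11). Without Müller-like cells, a removal chosen after seeing the data, the ratio was 1.02 (0.988 to 1.05), an interval that included 1. Of the 35 genes tested there, 6 were at least 1.5-fold higher, against 3.79% of all 12708 genes, and 0 were as much lower, against 3.43%. Mcm3 was at 5.38 and 9.65 CPM (1.8, 1.38 to 2.34), Rrm2 at 1.74 and 4.21 CPM (2.42, 1.56 to 3.84), Ung at 3.14 and 5.45 CPM (1.74, 1.23 to 2.47) and Hells at 4.54 and 7.55 CPM (1.66, 1.247 to 2.23). Tk1 (1.86) and Ccne1 (1.71) were the others. Rrm1 was at 34.4 and 28.7 CPM (0.832, 0.736 to 0.94), the 1 tested gene there with its interval below 1.

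Clusters were then built without the members, the S gate genes, the other replication genes or Mettl3, and 14 of 20 were named from marker lists, with the numeric limits of the naming set after the cluster markers had been seen. G2/M gate genes stayed in the clustering, so that RPC-like cells are cycling cells by construction: all of those of sufficient depth, 139 in control and 211 in Mettl3-CKO, passed a gate. The summed member level in all RPC-like cells was 5224 and 5182 CPM (ratio 0.992, 0.965 to 1.02). In all classes other than RPC-like and Müller-like it was 712 and 721 CPM (1.01, 0.986 to 1.04). Ratios within finer gates varied more, in both directions. In RPC-like cells of both gates, 71 and 119 in number, the ratio was 0.893 (0.865 to 0.922). In RPC-like cells of the G2/M gate only it was 1.09 (1.02 to 1.17). In the other classes it was 2.63 (2.21 to 3.12) in cells of both gates, 3 and 3 in number. It was 0.456 (0.374 to 0.555) in their cells of the G2/M gate only, 13 and 21 in number.

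Müller-like cells, 472 in control and 388 in Mettl3-CKO, had a summed level of 1027 CPM in control (994 to 1062) and 1728 CPM in Mettl3-CKO (1681 to 1775), a ratio of 1.68 (1.61 to 1.76). S cells were 22 of 388 Müller-like cells of sufficient depth in control and 53 of 344 in Mettl3-CKO, while RPC-like cells held 6 and 7 S cells. The members and the S gate genes were left out of the clustering, so that progenitors in S phase may fall in the Müller-like class. Whether Müller-like S cells were progenitors or glia was not tested, and the ratios of this class are not those of glia alone. Within those S cells the level was 6344 and 5930 CPM (0.935, 0.873 to 1.0), and within Müller-like cells of neither gate it was 660 and 948 CPM (1.44, 1.35 to 1.52). The G2/M gate was passed by 3 Müller-like cells in control and 6 in Mettl3-CKO. Müller-like cells were thus 22 of the 54 S cells in control and 53 of the 80 in Mettl3-CKO, and the ratio within S cells was 0.935 in Müller-like, 0.942 in RPC-like and 0.791 in other classes, against 1.12 pooled.

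**Figure D5:**
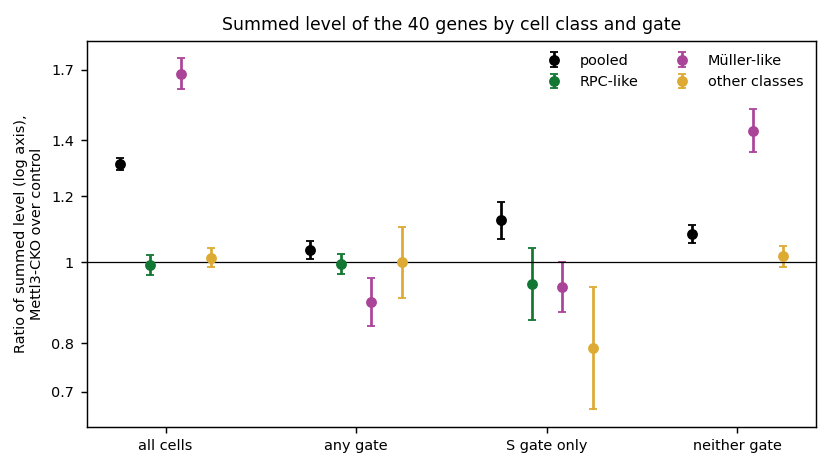
Ratio of the summed level of the 40 genes, Mettl3-CKO over control, on a log axis, for all classes pooled (black), RPC-like (green), Müller-like (purple) and other classes (yellow), with 95% counting intervals, in all cells, cells of any gate, S cells and cells of neither gate. No RPC-like cell was in neither gate. Müller-like cells stand at 1.68 over all cells and 1.44 in neither gate, and the other single-class points in these 4 populations lie at or below 1.02.

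The members were described within Müller-like cells after these ratios had been seen. Of the 32 genes tested over all Müller-like cells, 22 were at least 1.5-fold higher in Mettl3-CKO, against 9.45% of all 9641 genes, and 0 were as much lower, against 3.4%. Mcm3 was at 34.7 and 70.8 CPM (ratio 2.04, 1.63 to 2.58), Mcm5 at 21.5 and 50.6 CPM (2.36, 1.78 to 3.15) and Ung at 21.2 and 52.6 CPM (2.48, 1.87 to 3.32). Prim1 was at 12.6 and 39.4 CPM (3.13, 2.19 to 4.52), Rrm2 at 10.6 and 33.1 CPM (3.12, 2.12 to 4.69) and Pclaf at 13.5 and 42.7 CPM (3.17, 2.26 to 4.53). Tyms, at 52.1 and 56.6 CPM, had an interval that included 1 (0.876 to 1.35). In Müller-like cells of neither gate, 14 of 24 genes were at least 1.5-fold higher, against 9.32% of all 9303 genes, and 1, Blm (0.501, 0.249 to 0.951), was as much lower, against 3.55%. Prim1 (4.23, 2.28 to 8.33), Pclaf (3.14, 1.71 to 6.01), Cdt1 (2.9, 1.57 to 5.59), Ung (2.68, 1.62 to 4.56), Hells (2.63, 1.58 to 4.48) and Mcm3 (2.28, 1.61 to 3.26) were among the higher genes, while the intervals of Pcna (1.1, 0.87 to 1.38) and Mcm7 (1.09, 0.898 to 1.32) included 1. Cells just under the gate limits remain in neither gate, and their part in this difference was not tested.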

How the data were processed

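Single cells of 2 pooled retinas per genotype were profiled with a droplet kit that counts transcript ends. Per the labels and methods, the authors filtered reads with fastp, aligned them to mm10 (GRCm38) and made the count matrices with Cell Ranger 3.1.0, then used Seurat 3.1. The deposited values are whole UMI counts per gene and cell, not normalized. As read here the matrices ended early: 3994 of 5995 control and 3109 of 6992 Mettl3-CKO cells were complete and used. Of these, 237 and 86 did not meet the study's filter (over 200 genes and under 20% mitochondrial UMIs), and they were kept.

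Mitochondrial genes held 5.53% of control and 4.19% of Mettl3-CKO UMIs and were left out of all totals. Counts were summed per population and divided by those totals (CPM). Levels carry exact Poisson, level ratios exact conditional binomial, shares exact Clopper-Pearson and share ratios log-normal (Katz) intervals, all 95%. Genes with at least 50 UMIs over both libraries were counted, and a call is a 1.5-fold ratio. Cells were thinned to 2000 UMIs for gating, with limits that at most 1% of control rod-like cells reach. Clusters (Leiden, scanpy 1.11.5) used 2000 variable genes, 10 components and 20 neighbours. Doublet scores came from Scrublet, whose own calls were not used. The 6% of cells with the highest scores in each library, a share set by hand, were left out as an alternative. Ratio and thinning code was tested on simulated data. Positions and overlaps come from GENCODE vM21, and windows from RefSeq. Full values are given for members with at least 100 UMIs in S cells, and others by range or where a role is described. Members, lists and gates were chosen with earlier results of these data known.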

Additional observations from a re-analysis of the deposited data

How the results depend on the processing

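With 1 library per genotype the limits are those of counting and gating, and the pups of the control library cannot be compared. In Mettl3-CKO, cells with Xist and cells with Y-linked RNA would come from different pups, and the difference between them was not tested. No paired analysis was possible because each genotype is a single library. Of 188 alternative values, 123 stayed within the reported interval or within 1.5 times the reported count, 60 moved and 5 reversed. All 10 ratios of the share of G2/M cells stayed within the reported interval (1.62 to 2.12), and in none of its alternatives was a member 1.5-fold lower over all cells. Causes of the moves were not tested.

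All 5 reversals were of the summed level in S cells (1.12 as reported): 0.981 with Mettl3-CKO cells carrying Y-linked RNA, 0.794 when thinned to 3000 UMIs, 0.905 with another thinning seed, 0.944 with gate limits 1 UMI higher and 0.88 with the gate on the other 39 members. It moved to 1.02 without predicted doublets, 1.01 at 1000 UMIs, 1.39 with limits 1 lower, 1.01 with cells of both gates included, 1.3 without Müller-like cells and 1.03 with every gated cell. The share of S cells had a ratio of 1.22 with limits 1 lower and 1.02 without Müller-like cells.

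The summed level over all cells (1.31) was 1.38 for cells with Y-linked RNA, 1.249 without Müller-like and 1.17 without RPC-like cells. In G2/M cells (1.01) it was 0.967 with median-of-ratios scaling, 0.958 as a mean over cells, 1.07 without doublets, 1.05 for cells with Xist, 0.985 for those with Y-linked RNA, 0.958 at 1000 and 1.07 at 3000 UMIs. In cells of neither gate (1.08) it was 1.05 as a mean over cells, 1.23 at 1000 UMIs, 1.05 with another seed, 1.12 with limits 1 higher and 1.02 without Müller-like cells. The control level in S cells over neither gate (7.98) was 7.11 as a mean over cells, 8.71 without doublets, 10.1 at 1000 and 8.65 at 3000 UMIs, 9.81 with another seed, 4.52 and 11.7 with limits 1 lower and higher, 9.94 with cells of both gates and 6.83 without Müller-like cells.

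Counts moved as follows. The share of all genes was not computed for these alternatives, so that the counts stand without a background. With a limit of a 25% difference in place of 1.5-fold, 27 members were higher over all cells, 13 in S cells and 7 in G2/M cells, 1 was lower in G2/M cells, and 9 other replication genes were higher. With a fold of 2, 2 members were higher over all cells, 0 were higher in G2/M cells, 0 were lower in S cells, and 0 other replication genes were higher. With at least 200 UMIs, 0 were higher and 0 lower in S cells, and 2 higher in G2/M cells. Cells with Y-linked RNA gave 6 other replication genes higher and 3 members lower in S cells, and leaving out RPC-like cells gave 9 members higher over all cells. In S cells 1 was higher and 2 lower at 1000 UMIs, 1 and 4 at 3000 UMIs, 1 and 2 with limits 1 higher, and 1 and 3 with the gate on the other 39 members. Also in S cells, 3 were lower with another seed, 12 were higher with limits 1 lower, and 0 were lower as a mean over cells, 0 with cells of both gates and 0 with every gated cell. Leaving out Müller-like or RPC-like cells and taking every gated cell were chosen after seeing the data.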
